A study of Mus musculus with 10 samples.

Results

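The 10 genes described here are those of the bone morphogenetic protein (BMP) pathway and its Id targets: the ligand gene Bmp4, the receptor genes Bmpr1a and Bmpr2, the SMAD genes Smad1, Smad5 and Smad4, and Id1, Id2, Id3 and Id4. They were found by Ensembl gene ID in the expression tables, where all 10 of the 10 listed symbols had a row among 55487 genes. The series maps R-loops, structures of RNA paired with DNA, in E14, an established line of mouse embryonic stem cells, with 7 R-loop samples in 5 groups that were not analysed here. The values come from its single RNA-seq group of 3 replicates, unperturbed E14 cells grown in medium with 15% FBS, LIF, a GSK inhibitor at 3 µM and an inhibitor of MEK1/2 at 1 µM. The labels do not say whether the 3 replicates were separate cultures, so their spread may be technical. There was no second condition, and no difference between conditions was tested.

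A BMP dimer binds a complex of type I and type II receptor kinases, and the type II receptor activates the type I receptor, which phosphorylates SMAD1 and SMAD5. These join SMAD4, enter the nucleus and bind DNA, and the Id genes are among their best known targets. Id proteins have a helix-loop-helix domain but no DNA-binding region, and they hold E proteins and other basic helix-loop-helix (bHLH) factors in pairs that cannot bind DNA. In mouse embryonic stem cells, BMP together with LIF is known to support self-renewal in the absence of serum, an effect attributed to Id proteins. FBS itself carries BMP-like activity.

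A core element through which SMAD1 and SMAD5 act at BMP targets holds the letters GGCGCC, so the start regions of the members were searched for it. Sequences came from the RefSeq table of GRCm38.p6, from 250 bases before to 50 after each start, and 8 of the 10 members matched, with 10 windows. Id1 and Smad4 had no entry. GGCGCC, which reads the same on both strands, was present in windows of 5 genes: Id2, Id4, Bmpr1a, Bmpr2 and Smad5, where 2 overlapping windows share the match. It was absent from the windows of Id3, Bmp4 and Smad1. Of the 10 member windows 6 held it, the 2 overlapping windows of Smad5 among them. Over all 32851 windows in the table the share was 11.9%. Among the 10219 windows whose GC content was at least that of the member window lowest in GC (59.3%), it was 30.03%. That limit is a floor and does not match the members' GC content, which reached 79.3%. A match in these letters is a description and not a binding site. The Id4 sequence is shown whole because its 250 bases before the start held no annotated Id4 exon. Exons of other genes were not checked. For the others the element is shown with 10 bases on either side. Before the starts used, exons of the same gene covered 250 of the 250 bases for Bmpr2, 161 for Id2 and 141 for Bmpr1a. Elements other than that of Id4 lay inside the annotated spans of their genes, given below. Capitals mark GGCGCC.
Id4, the 250 bases before the start, chr13:48260866-48261115, plus strand: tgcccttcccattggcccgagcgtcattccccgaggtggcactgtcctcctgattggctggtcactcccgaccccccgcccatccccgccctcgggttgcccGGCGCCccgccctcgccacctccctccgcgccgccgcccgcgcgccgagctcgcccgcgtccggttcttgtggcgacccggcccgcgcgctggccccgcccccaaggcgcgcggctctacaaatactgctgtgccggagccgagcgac
Id2, element beginning 231 bases before the start, chr12:25096308-25096333, minus strand: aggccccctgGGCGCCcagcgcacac
Bmpr1a, element beginning 198 bases before the start, chr14:34502729-34502754, minus strand: cgcgcgcgccGGCGCCtcttgctcgc
Bmpr2, element beginning 105 bases before the start, chr1:59764164-59764189, plus strand: ccggcggccgGGCGCCgctgcctgcc
Smad5, element after the first and before the second of 2 neighbouring starts, chr13:56703023-56703048, plus strand: ccggcgagcgGGCGCCgagcgcttgt

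Total estimated counts were 11420425 in replicate 1, 6467405 in replicate 2 and 5787357 in replicate 3. The label of embryonic stem cells was checked against markers: 6 of 6 stem cell genes had mean levels from 32.9 to 331 TPM, a level per transcript length scaled to the same sum in each library. Of 22 marker genes of fibroblasts, primitive endoderm, trophoblast, mesoderm and neurectoderm, 1 reached a mean of 1 TPM (Thy1, at 2.5), and 9 had at most 3 counts in every library. The summed fibroblast list was 4.92, 4.61 and 2.07 TPM in replicates 1, 2 and 3. Within it Col3a1 had 0 counts throughout and Pdgfrb had 203, 96 and 55. The 4 Id genes summed to 2.48, 2.01 and 2.19 TPM, below the fibroblast list in replicates 1 and 2 and above it in replicate 3. The primitive endoderm list summed to 0.51 to 1.16 TPM. The part of such cells in the members' levels was not tested. Replicate 3 stood apart in gene length: counts of long genes were lower there and counts of short genes higher, so means are also given without it. In bulk RNA, fewer cells expressing a gene and less of its RNA per cell cannot be told apart.

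The ligand, receptor and SMAD genes had higher mean TPM than the Id genes. Their mean levels ran from 9.04 TPM for Bmpr1a to 0.157 TPM for Id3, and 7 of the 10 reached a mean of 1 TPM: Bmp4, both receptors, the 3 SMAD genes and Id1. This level was reached by 19.8% of all genes listed, and among the 21884 protein-coding genes of the nuclear chromosomes 44.2% did. Without replicate 3 it was again 7. Those protein-coding genes held 19.5%, 16.2% and 14.8% of all TPM in replicates 1, 2 and 3, which scales down their TPM. The scaling was unequal between the replicates, and the SD of TPM includes this. With TPM rescaled to protein-coding genes alone, 9 of the 10 members reached 1, all but Id3 at a mean of 0.993, against 56.7% of protein-coding genes.

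**Figure D1:**
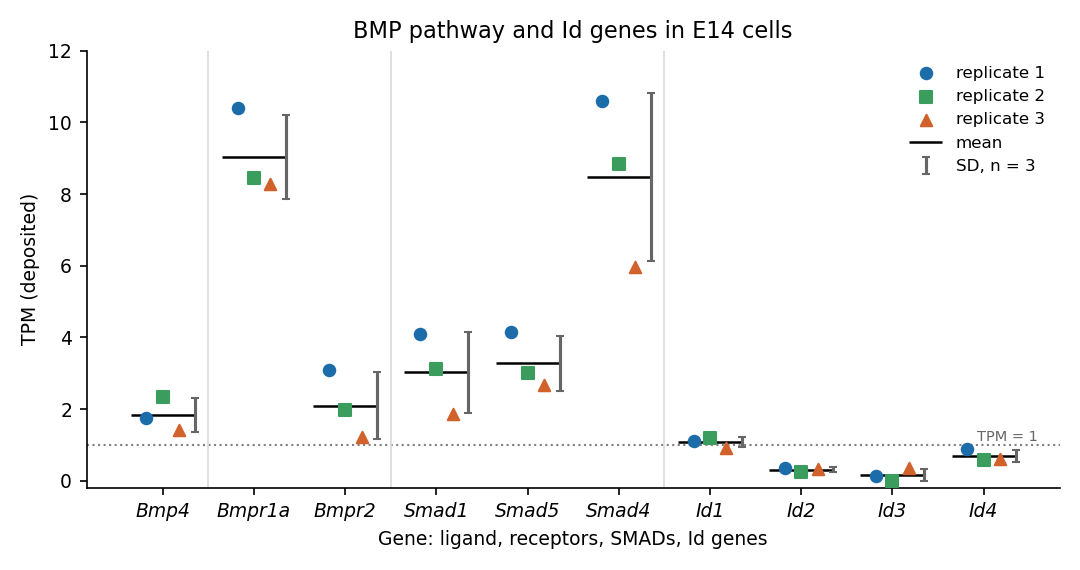
TPM (linear axis) of the 10 genes in each of the 3 replicates, with the mean (line) and the SD over 3 replicates (bar), ordered as ligand, receptors, SMADs and Id genes; the dotted line is 1 TPM. Bmpr1a and Smad4 lie between 5.97 and 10.6 TPM in every replicate, and no Id gene exceeds 1.2 TPM.

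Bmp4 (ENSMUSG00000021835, GRCm38 chromosome 14, 46383520 to 46390669, minus strand) encodes the secreted ligand. It had 35, 21 and 25 counts and 1.75, 2.34 and 1.42 TPM in replicates 1, 2 and 3, a mean of 1.84 ± 0.466 TPM (SD, n = 3). Without replicate 3 the mean was 2.05 TPM. The order of the replicates depended on the unit. In CPM, which divides counts by library size and takes no account of length, Bmp4 had 3.07, 3.25 and 4.32, so replicate 3 was highest in CPM and lowest in TPM. Its effective length, the number of positions where a fragment can start averaged over the transcripts it was assigned to, was estimated at 739, 473 and 925 nt. TPM divides by this length and then scales to the sum over all genes, and CPM does not divide by length. With TPM rescaled to protein-coding genes alone, Bmp4 had 8.99, 14.48 and 9.58, so replicate 1 was lowest. The place of replicate 3 in TPM thus depended on that scaling and not on length alone. Counting error alone would give a coefficient of variation of 19.7%, and that observed in CPM was 19.1%.

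**Figure D2:**
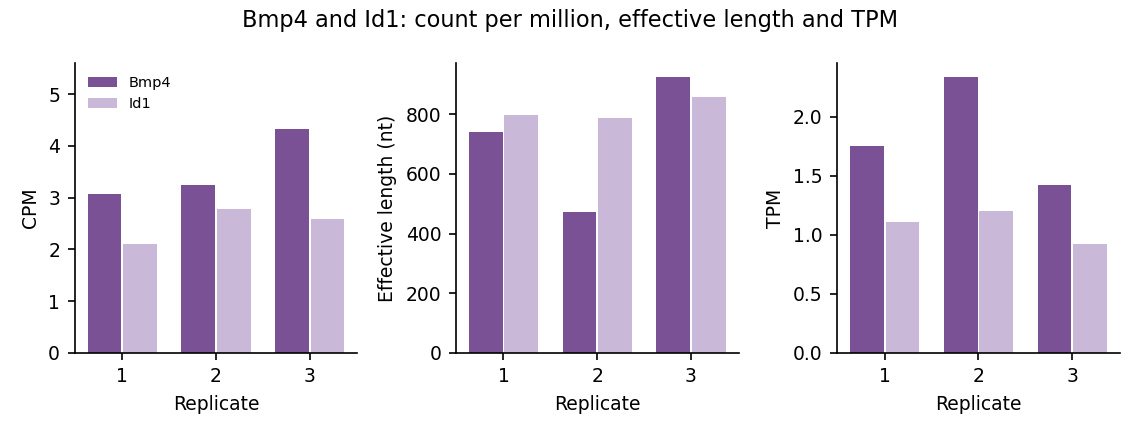
CPM, effective length in nt and TPM of Bmp4 and Id1 in each replicate (bars, axes from 0). Bmp4 has its highest CPM (4.32) and its lowest TPM (1.42) in replicate 3. Id1 also has its lowest TPM there (0.92), although its CPM (2.59) is above that of replicate 1 (2.10). The effective length of Bmp4 is longest in replicate 3, and that of Id1 stays between 787 and 858 nt.

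Of 14 ligand genes on a list of 66 BMP pathway genes that includes the members, 3 reached a mean of 1 TPM. Gdf3, a ligand of the wider family also known for Nodal-like activity, had 24.3, 18.01 and 15.5 TPM and lay above Bmp4 in each library. Bmp7, which like Bmp4 signals through SMAD1 and SMAD5, had 1.48, 1.05 and 1.14 TPM, below Bmp4 in all 3. In CPM the order was the reverse in each library, with Bmp7 at 11.4, 10.8 and 10.4 and Bmp4 at 3.07, 3.25 and 4.32. Bmp2, the ligand closest to Bmp4 in function, had 2, 2 and 0 counts, and 8 of the 14 ligand genes had no more than 3 counts in any library, so that they cannot be ordered at this depth. Of the 3 convertase genes, whose products cut BMP precursors, Pcsk6 had a mean of 9.86 ± 2.51 TPM (SD, n = 3) and Furin 1.90 ± 0.849 TPM (SD, n = 3).

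Bmpr1a (ENSMUSG00000021796, chromosome 14, 34410734 to 34503341, minus strand), the type I receptor for BMP2 and BMP4, was the member with the highest mean. It had 1550, 809 and 735 counts and 10.4, 8.44 and 8.28 TPM, a mean of 9.04 ± 1.17 TPM (SD, n = 3), above 84.7% of protein-coding genes. Without replicate 3 its mean was 9.415 TPM, below the 9.72 TPM of Smad4, so the top rank depended on that library. In CPM Bmpr1a was the steadiest member, at 135.7, 125.1 and 127.0, a coefficient of variation of 4.39% where counting error alone gives 3.29%. The other type I receptor that reached a mean of 1 TPM was Acvr1, at 2.81, 1.90 and 1.22 TPM, below Bmpr1a in every library. Bmpr1b, its closest relative, had 1 count in each library.

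Bmpr2 (ENSMUSG00000067336, chromosome 1, 59763400 to 59879014, plus strand), the type II receptor specific for BMPs, had 828, 421 and 208 counts and 3.08, 1.96 and 1.23 TPM, a mean of 2.09 ± 0.932 TPM (SD, n = 3). Replicate 3 was lowest, and without it the mean was 2.52 TPM. The log2 ratio of Bmpr2 to Bmpr1a was -1.75, -2.11 and -2.75 in the 3 libraries, a mean of -2.20 ± 0.51 (SD, n = 3), so the type I receptor was higher in each. The ratio was -1.22 ± 0.52 (SD, n = 3) in CPM, since the Bmpr2 transcript is the longer of the pair. The type II receptors shared with activins lay close to Bmpr2: Acvr2b had 2.95, 2.02 and 1.38 TPM and Acvr2a 1.91, 1.56 and 1.14 TPM, and the ranges of all 3 overlapped. Among 4 co-receptor genes, Eng, which encodes endoglin, had 6.75, 4.83 and 2.32 TPM and was the one to reach a mean of 1 TPM.

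Smad1 (ENSMUSG00000031681, chromosome 8, 79338395 to 79399518, minus strand) and Smad5 (ENSMUSG00000021540, chromosome 13, 56703010 to 56742377, plus strand) encode the SMADs that the BMP receptors phosphorylate. Smad1 had 248, 148 and 90 counts and 4.10, 3.13 and 1.85 TPM, a mean of 3.03 ± 1.13 TPM (SD, n = 3). Smad5 had 474, 276 and 194 counts and 4.14, 3.01 and 2.67 TPM, a mean of 3.27 ± 0.770 TPM (SD, n = 3). The pair could not be ordered per length. Their log2 ratio, Smad5 over Smad1, was 0.01, -0.06 and 0.53, a mean of 0.16 ± 0.32 (SD, n = 3), and -0.02 without replicate 3. Smad9, the third SMAD of this class, had 0.23, 0.16 and 0.06 TPM, below both in every library.

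Smad4 (ENSMUSG00000024515, chromosome 18, minus strand) encodes the SMAD shared by the BMP and the activin and TGF-beta branches. It had 754, 392 and 272 counts and 10.6, 8.84 and 5.97 TPM, a mean of 8.47 ± 2.34 TPM (SD, n = 3), above Smad1 and Smad5 in every library with no overlap of the ranges. The inhibitory Smad7, which also answers to both branches, had 14.1, 10.5 and 10.6 TPM and exceeded Smad4 in each library. Smad6, the inhibitory SMAD known to act mainly on BMP signalling, had 1.16, 0.80 and 0.67 TPM.

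Id1 (ENSMUSG00000042745, chromosome 2, 152736251 to 152737410, plus strand) had the highest Id level per length. It had 24, 18 and 15 counts and 1.11, 1.2 and 0.92 TPM, a mean of 1.08 ± 0.143 TPM (SD, n = 3), above 56.5% of protein-coding genes. Exact 95% Poisson intervals on the counts ran from 15.4 to 35.7, from 10.7 to 28.5 and from 8.4 to 24.7, and overlapped in all pairs. These intervals cover counting error only.

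Id4 (ENSMUSG00000021379, chromosome 13, 48261228 to 48266026, plus strand), an Id gene best known from neural development, had the most counts of the 4, at 90, 41 and 42. Its transcript of 3849 nt is longer than that of Id1, listed at 934 to 991 nt, and its TPM was lower, at 0.89, 0.58 and 0.60, a mean of 0.690 ± 0.173 TPM (SD, n = 3). Id1 exceeded Id4 in TPM in each library, and Id4 exceeded Id1 in CPM in each. Per length, Id1 held 44.8%, 59.7% and 42.0% of the summed Id level and Id4 35.9%, 28.9% and 27.4%, whereas Id4 held 70.3%, 64.1% and 61.8% of the summed Id counts.

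Id2 (ENSMUSG00000020644, chromosome 12, 25093799 to 25097140, minus strand) had 11, 5 and 6 counts and 0.36, 0.23 and 0.32 TPM, a mean of 0.303 ± 0.0666 TPM (SD, n = 3). Id3 (ENSMUSG00000007872, chromosome 4, 136143497 to 136145755, plus strand) had 3, 0 and 5 counts and 0.12, 0 and 0.35 TPM. The 0 in replicate 2 had an exact 95% Poisson upper limit of 3.69 counts, and 3 counts there would be 0.256 TPM. The exact 95% Poisson interval on the 3 counts of replicate 1 was 0.619 to 8.77 counts. Id2 and Id3 could not be ordered, since their ranges overlapped and Id3 was the higher in replicate 3.

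Down the order of mean TPM, the neighbouring members whose ranges did not overlap were Smad4 over Smad5, Bmp4 over Id1, Id1 over Id4 and Id4 over Id2. These ranges leave out counting error, so the order of the low-count pairs is not settled by them. Id1 at its lowest had 0.92 TPM and Id4 at its highest 0.89. Counting error alone would give a coefficient of variation of 23.4% for Id1, 14.1% for Id4 and 19.7% for Bmp4. The ranges of Bmpr1a and Smad4 overlapped, with Smad4 higher in 2 of 3 libraries, and so did those of Bmpr2 and Bmp4. Smad1 lay above Bmpr2 in each library by 0.937 ± 0.284 TPM (SD, n = 3), although the ranges over libraries overlapped. Each of the 6 signalling members had a higher mean TPM than any Id gene. In CPM Id4 exceeded Bmp4 in each library, at 7.88, 6.34 and 7.26 against 3.07, 3.25 and 4.32.

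The summed level of the 4 Id genes was 2.48, 2.01 and 2.19 TPM, and that of Smad1, Smad4 and Smad5 was 18.8, 15.0 and 10.5 TPM. The log2 ratio of the Id sum to the SMAD sum was -2.69 ± 0.38 (SD, n = 3), and -2.91 without replicate 3. Of the partners that Id proteins bind, the E protein genes Tcf3, Tcf4 and Tcf12 had means of 9.59 ± 1.86, 8.49 ± 2.25 and 8.72 ± 2.83 TPM (SD, n = 3). Their sum was 34.3, 24.3 and 21.8 TPM, above the SMAD sum and the Id sum in each library. The log2 ratio of the E protein sum to the Id sum was 3.79, 3.60 and 3.31, a mean of 3.57 ± 0.24 (SD, n = 3). These are levels of RNA and not of protein. Of 9 lineage bHLH genes, Neurog2 and Myod1 among them, all 9 had at most 3 counts in every library.

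Other listed targets of the pathway did not share the low level of the Id genes without exception. Dusp9, a phosphatase of ERK kinases described as a BMP target in mouse embryonic stem cells, had 12.2, 8.88 and 8.63 TPM, above the summed Id level in each library. Msx2, Hey1 and Msx1, transcription factor genes, had means of 0.360, 0.267 and 0.0767 TPM, and Atoh8 had 0 counts in all 3 libraries. Of 9 target genes including the 4 Id genes, 2 reached a mean of 1 TPM, Dusp9 and Id1.

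Inhibitors were listed by where they act, and the difference between those lists was not tested. Of 14 secreted antagonist genes, 1 reached a mean of 1 TPM: Twsg1, which encodes an extracellular partner of chordin and BMPs, at 8.07, 5.98 and 4.53 TPM. Nog, Grem1, Cer1, Sost and Sostdc1 had 0 counts in every library, and 9 of the 14 had at most 3 in each. Of 9 membrane or intracellular inhibitors, 8 reached a mean of 1 TPM. They were led by the phosphatase gene Ppm1a at 19.0 ± 3.66 TPM (SD, n = 3) and the SMAD corepressor gene Skil at 11.01 ± 2.48 TPM (SD, n = 3). The other was the pseudoreceptor gene Bambi, at 0.503 ± 0.0764 TPM (SD, n = 3). Smad6, counted above with the inhibitory SMADs, was also below 1 TPM on average, at 0.877 ± 0.254 TPM (SD, n = 3). Over the whole list 26 of 66 genes reached a mean of 1 TPM, 39.4%, a share near the 44.2% of protein-coding genes.

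**Figure D3:**
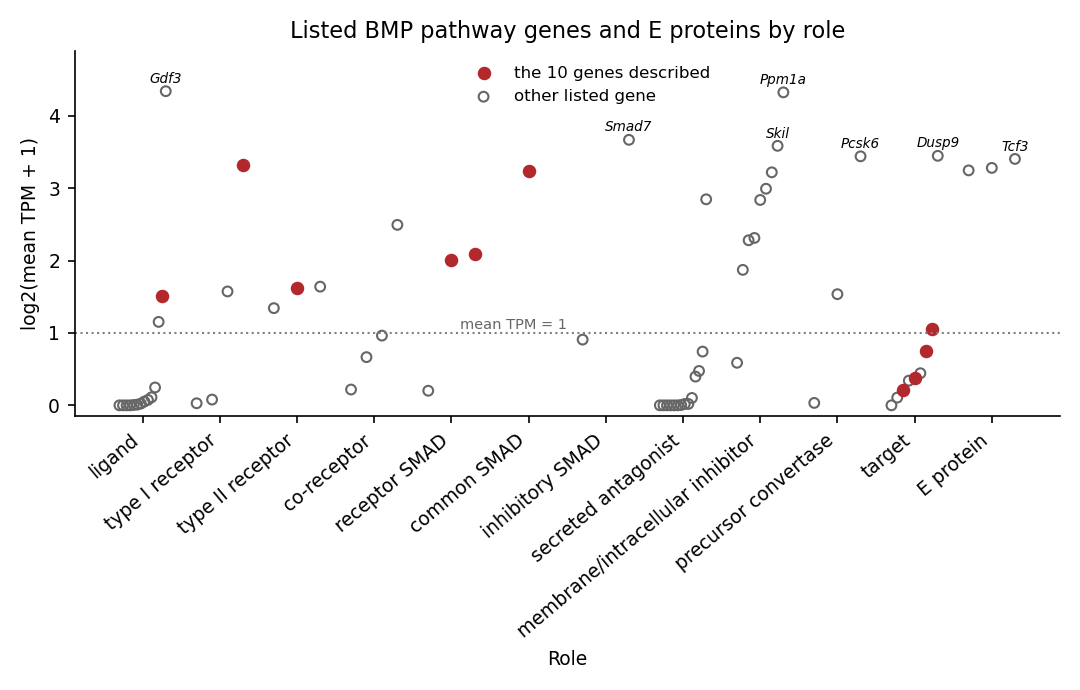
Mean level over 3 replicates of each listed BMP pathway gene and of the 3 E protein genes, as log2(mean TPM + 1), by role; filled points are the 10 genes described, open points the others, and the dotted line is a mean of 1 TPM. The 14 secreted antagonists lie below the line except Twsg1, and the 4 Id genes lie below the receptor and SMAD genes described.

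Variation between replicates was tested over all genes by edgeR's goodness-of-fit test, which asks whether a gene varied more than others of its abundance. Of the members, 8 passed the filter on low counts, and Id2 and Id3 did not. At a Benjamini-Hochberg adjusted p under 0.05, 0 of the 8 were called, against 232 of 12577 genes tested (1.84%). The lowest adjusted p was 0.558, that of Bmpr2 in this edgeR test. The unadjusted p of Bmpr2 by edgeR was 0.0315, and without replicate 3 it was 0.502. Of the 8, Bmpr2 alone lay under 0.05 unadjusted, as did 6.96% of all genes tested. With DESeq2 size factors the members called were again 0, with Bmpr2 alone at an unadjusted p under 0.05. A p that misses the threshold does not show that a gene was constant.

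Bmpr2 and Bmp4, among the longest and the shortest members, moved in opposite directions in replicate 3. In log2 TMM-scaled CPM, Bmpr2 deviated from its mean by 0.32, 0.19 and -0.51 in replicates 1, 2 and 3. Bmp4 deviated by -0.26, -0.15 and 0.42. The trend over all genes at the length of Bmpr2 was 0.16, 0.09 and -0.23, and at the length of Bmp4 -0.12, -0.01 and 0.14, in the same directions and smaller. After that trend was removed, the unadjusted p of Bmpr2 by edgeR was 0.288, and 0 members were under 0.05. Bmpr1a and Id4 did not follow the trend in replicate 3, with deviations of 0.09 and 0.14 where the trend was -0.13 and -0.09. In the wider pathway list, 0 of 34 genes tested were called by edgeR. At an unadjusted p under 0.05 were 4 of them, Bmpr2, Eng, Ski and Furin, beside the 6.96% of all genes.

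**Figure D4:**
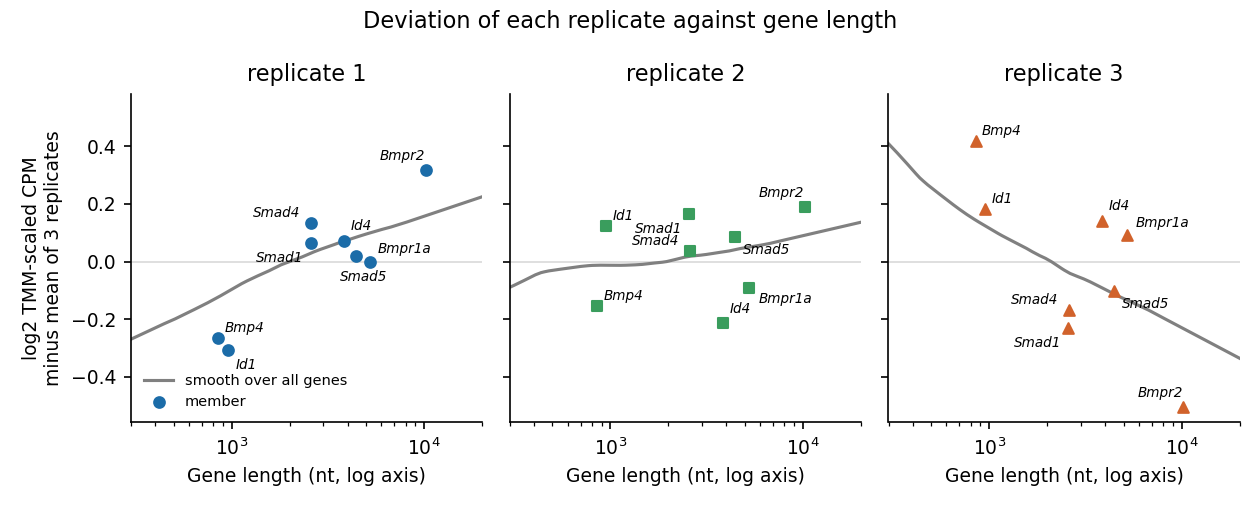
Deviation of each replicate from the mean of the 3, in log2 TMM-scaled CPM, against gene length (log axis, nt) for the 8 members tested; the grey line is the smooth over all tested genes averaging 20 counts or more. In replicate 3 Bmpr2 lies at -0.51 and Bmp4 at 0.42, on the side of the line's own slope.

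Every member's estimated count was whole, within 0.005, in all 3 libraries, as counts are when no read is shared out between genes. Of all genes with counts, 82.1% to 82.8% had whole counts. Annotated genes overlap Bmp4, Bmpr1a, Bmpr2, Smad5, Smad4 and Id4. The highest counts among them were 6, 6 and 9 for Gm38125, inside Bmpr2 on the same strand. The antisense gene Gm15222 within Bmp4 had 1, 0 and 3 counts, and the others had at most 2. How strand was used in the counting is not given in the sources used here, so for Bmp4 and Id4 a small part of the reads could belong to antisense transcripts.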

How the data were processed

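RNA-seq of 3 replicates of E14 cells was analysed. Per the labels' protocols, ribosomal RNA was removed from total RNA before directional library preparation. Tables hold, per the file headers, an estimated count (expected count), TPM and FPKM per gene as the authors deposited them, with length and effective length. The submitters' processing notes name STAR, RSEM and mm10, without roles. FPKM was not used. Names and coordinates came from GENCODE vM21 (GRCm38), which matched 55141 of 55487 IDs, and promoter sequences from RefSeq.

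Levels are the deposited TPM, with mean and SD over 3 replicates. CPM divides estimated counts by the library total, and 3 counts are 0.263, 0.464 and 0.518 CPM in replicates 1, 2 and 3. Variation was tested on rounded counts with edgeR 4.0.16 in R 4.3.3 (filterByExpr, TMM, trended dispersion). The test was also run on simulated data, with large changes in replicate 3 of genes with higher counts only. That run does not cover smaller changes or low-count members such as Id1 and Bmp4. DESeq2 1.42.0 gave alternative size factors. Python 3.11.15 with pandas 2.3.3 and scipy 1.17.1 did the rest. The length trend is a lowess smooth (span 0.3) of each replicate's deviation. Members and lists were chosen with earlier results of these data known. Named genes are the members, the listed genes, overlapping genes and the 2 protein-coding genes nearest in level to each Id gene.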

Additional observations from a re-analysis of the deposited data

How the results depend on the processing

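The 9 results were recomputed under 59 alternatives, 52 planned and 7 chosen after seeing the data, those of the E protein to Id ratio. Of these, 46 left the result within the limit set for it, 12 moved it and 1 reversed it. For ratios and shares the limit was the SD over the replicates. Leaving out 1 of 3 replicates cannot shift a mean by that much. For ratios and shares those fits could therefore not be labelled as moved, and their labels are no sign of stability. For counts of genes it was a fixed fold change, under which 37 pathway genes in place of 26 were still labelled the same. In CPM, without length scaling, the log2 ratio of Id genes to SMADs became -3.41, Smad5 to Smad1 0.98, Bmpr2 to Bmpr1a -1.22 and E proteins to Id genes 4.15, and the share of the Id sum held by Id1 fell from 48.8% to 23.0%, since the genes differ in length. On log2(TPM + 1) the ratio of Id genes to SMADs was -2.26 and that of E proteins to Id genes 3.08. With a limit of 5 TPM, 2 members and 12 pathway genes passed in place of 7 and 26. CPM of at least 1 gave 8 members and 37 pathway genes. The ratio of Smad5 to Smad1 reversed to -0.0212 without replicate 3 and ran from -0.0212 to 0.27 over the fits that left out 1 replicate each. The genes called as varying ran from 63 to 93 over such fits, in place of 232, with fewer samples in each, and members called stayed at 0 in each. Depth limits Id2 and Id3 most, with 22 and 8 counts over all libraries, then Id1 and Bmp4.

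No paired analysis was possible because all values came from a single group, and no comparison between groups was made.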

Other observations

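The start regions of the members were rich in GC. Over the 10 RefSeq windows of 8 members, GC content ran from 59.3% (Bmpr2) to 79.3% (Bmpr1a), against a median of 52.7% over all 32851 windows. The ratio of observed to expected CpG was 0.419 for Bmp4 and at least 0.704 for the other members' windows, against a median of 0.384. GC skew, the excess of G over C on the strand of the gene as a share of both, is a property studied in R-loop formation. It was 0.282 for Smad1 and 0.260 for Bmp4, above 95.9% and 94.8% of windows, and 0.0420 for Bmpr1a. It was below 0 for the others: -0.0111 for Id3, -0.124 for Bmpr2, -0.137 for Id2, -0.145 for Id4 and -0.186 to -0.0846 over the 3 windows of Smad5, the lowest of which was above 8.62% of windows. R-loop signal at these starts was not analysed here.

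The genes nearest to an Id gene in level were found among protein-coding genes outside the lists by the root mean square difference in log2(TPM + 1) over the 3 libraries of the single condition. For Id1 they were Mrm3 and Fam229b, at differences of 0.0118 and 0.0191, and 80 genes lay within 0.1. For Id4 they were Cntn2 and Masp2, for Id2 Aldh3b1 and Tceal7, and for Id3 Agrp and Gm2174. With 1 condition, this is likeness of level alone.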
